A study of Mus musculus with 4 samples.

Results

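The genes described here encode the oxidative phosphorylation system, the 5 enzyme complexes of the mitochondrial inner membrane that pass electrons to oxygen and make ATP. They were taken by symbol from the GENCODE annotation, as protein-coding genes whose names start with Ndufa, Ndufb, Ndufc, Ndufs, Ndufv, Uqcr, Atp5, mt-Nd, mt-Co, mt-Atp or mt-Cytb or mark the Cox4 to Cox8 subunits, together with Sdha to Sdhd. The rule found 106 of the 52636 genes in the files, 93 of them nuclear and 13 mitochondrially encoded. Of the nuclear genes, 8 are complex I assembly factors (Ndufaf symbols), which build the enzyme without being part of it, and 85 are listed as subunit genes. A second Atp5o identifier, 1 gene in the annotation, had no row in the files.

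RNA-seq was run on mouse cells sorted by fluorescence from otocysts, the epithelial vesicles that become the inner ear. The groups were Brg1cKO, a conditional knockout of Brg1 with 2 libraries, and Control, also with 2 libraries, both labelled otic ectoderm and each made from 3000 cells. The labels used here give no Cre driver, no stage and no genotype for the controls beyond that word, and they do not say whether replicates came from separate embryos or sorts, so p-values measure the spread between these libraries only. Smarca4, the gene for the chromatin remodeler Brg1, stood at 891 and 848 CPM in Brg1cKO against 816 and 815 CPM in Control (CPM is the read count scaled to the size of the library), a count that can include reads outside any deleted exons and so checks the labels little.

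Complexes I, III and IV mix subunits made from both genomes, complex II is wholly nuclear, and complex V, the ATP synthase, has most of its parts from the nucleus. Complex I oxidises NADH, complex II oxidises succinate, complexes III and IV hand electrons through cytochrome c to oxygen, and the proton gradient drives complex V. The mitochondrial genome is transcribed as long precursors that are cut into single RNAs, so its genes share promoters, while each nuclear gene has its own. The study's title concerns Brg1 in otic cells and the genes that set their identity. The comparison of Brg1cKO with Control here asks how the transcripts of each complex, and of each genome, stood in the same libraries.

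The files carried 29361382 and 25875555 gene reads in Brg1cKO and 15357265 and 19132360 in Control. Cell type markers differed between the groups. All 13 otic epithelium markers had negative log2 fold changes, with summed levels of 1075 and 1132 CPM in Brg1cKO and 3628 and 3601 CPM in Control, and 10 of 10 neuroblast markers did too (472 and 411 against 1415 and 1431 CPM). All 12 macrophage markers were positive (1588 and 1514 against 338 and 386 CPM), and 10 of 11 tested striated muscle and heart markers were (897 and 904 against 194 and 146 CPM). Endothelial markers were abundant in both groups (2806 and 2776 against 2470 and 2244 CPM), although the cells were sorted as otic. Of 8 red blood cell markers all 7 tested were negative (224 and 205 against 620 and 660 CPM), and 3 of 7 head mesenchyme markers were positive (2815 and 2889 against 3663 and 3916 CPM). No marker listed for otic epithelium, macrophages or endothelium was at 0 in every library. The part of cell mixture in the values below was not tested, and in such bulk samples fewer cells of a type and less RNA per cell cannot be told apart.

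Of the 13 mitochondrially encoded genes, 6 were almost uncounted in every library. These lie next to each other on the mitochondrial genome, from mt-Co2 to mt-Nd4l (chrM:7013-10173, mm10), and were grouped after their counts were seen. Their DNA is repeated on chromosome 1, where GENCODE annotates 7 pseudogenes between bases 24611535 and 24616197. The sequences show how close the copies are. Each line below gives 75 bases, the read length of the libraries, from the mitochondrial gene or its chromosome 1 copy in GENCODE transcripts of GRCm38, the assembly also called mm10, with any differing base in capitals.
mt-Co2 (chrM:7213-7287, plus strand): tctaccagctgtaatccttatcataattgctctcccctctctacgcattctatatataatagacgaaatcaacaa
Gm28661 (chr1:24615291-24615365, minus strand): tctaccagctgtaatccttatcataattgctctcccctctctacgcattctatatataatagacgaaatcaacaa
mt-Nd3 (chrM:9459-9533, plus strand): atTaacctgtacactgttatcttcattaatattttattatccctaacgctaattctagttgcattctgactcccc
Gm28438 (chr1:24613045-24613119, minus strand): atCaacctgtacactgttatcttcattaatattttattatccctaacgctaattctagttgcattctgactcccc

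Along their whole aligned length, mt-Co2 and Gm28661 had 0 differences over 681 bases, and mt-Co3 and Gm28437 had 0 over 783. The copies of mt-Atp6, mt-Nd4l and mt-Nd4 had 0 differences over 678, 294 and 876 bases. The copy of mt-Nd3 had 1, T3C, counted from the first base of the gene, and the copy of part of mt-Co1 had 1, A1066T. A read that falls wholly in such a stretch has equally good positions on both chromosomes.

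The share of 75-base windows found letter for letter in another gene's transcripts was 99.5% for mt-Co2, 99.5% for mt-Atp6, 99.9% for mt-Co3, 97.8% for mt-Nd3 and 98.7% for mt-Nd4l. It was 39.8% for mt-Co1 and 61.5% for mt-Nd4, which flank the block, and at most 5.71% (mt-Nd2) for the remaining genes of that genome. Within the block the exception was mt-Atp8, at 0%, for which no copy is annotated. It starts in the 230 bases between mt-Co2 and mt-Atp6 and ends inside mt-Atp6 (chrM:7766-7969, with mt-Atp6 from base 7927). The copies of mt-Co2 and mt-Atp6 stand 233 bases apart on chromosome 1, in a stretch that no transcript in the annotation covers.

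mt-Co2, a catalytic subunit of complex IV, had 513 and 290 reads in Brg1cKO against 275 and 247 in Control. mt-Co3, another core subunit of that complex, had 167 and 79 reads in Brg1cKO against 180 and 87 in Control. mt-Nd3, a membrane subunit of complex I, had 27 and 10 reads in Brg1cKO against 13 and 12 in Control. The groups overlapped for all of these. mt-Atp6 and mt-Atp8, the 2 ATP synthase subunits of that genome, and mt-Nd4l had between 16 and 187 reads in any library. The copies on chromosome 1 were counted as low, between 6 and 396 reads each. Records that did not align uniquely are kept apart from gene counts in the files, and how many of them came from this block was not tested. With these 6 genes near 0, complex V had no usable mitochondrial value, and complex IV rested on mt-Co1.

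**Figure D1:**
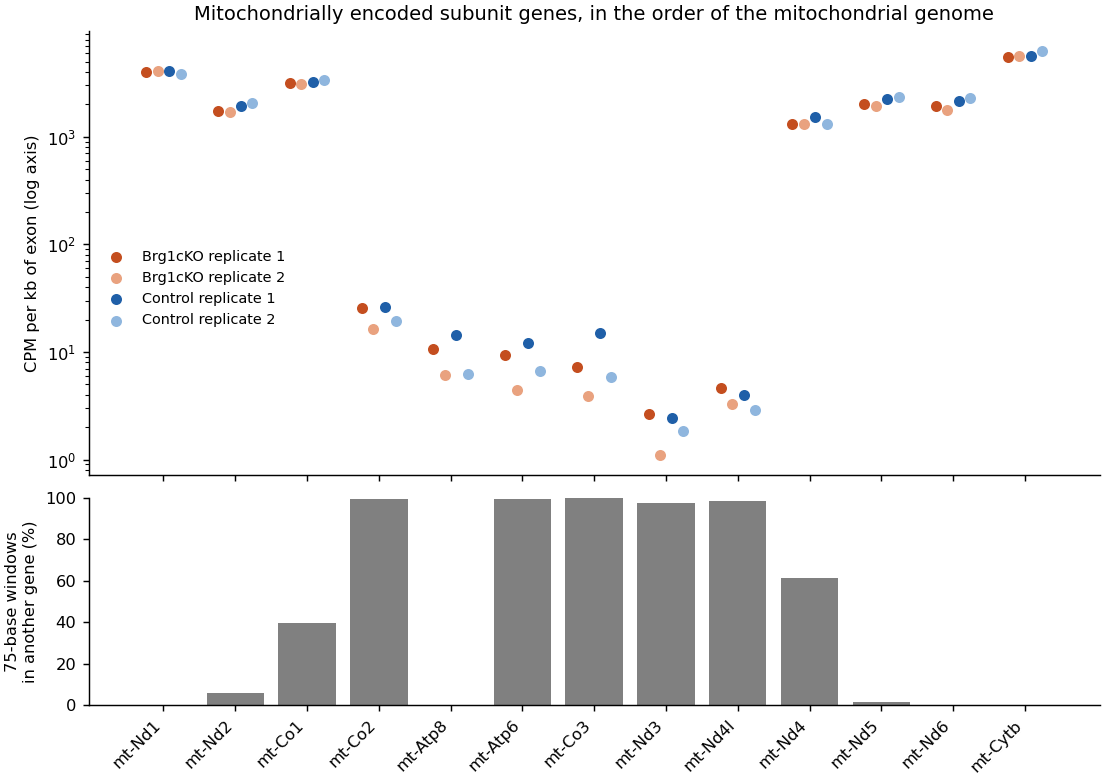
The upper panel plots each mitochondrially encoded gene in genome order as CPM per kb of exon on a log axis, with 1 point per library, and the lower panel plots the percent of its 75-base windows found in another gene's transcripts. From mt-Co2 to mt-Nd4l every point lies far below the flanking genes, over bars of 97.8% or more except at mt-Atp8.

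The other 7 mitochondrially encoded genes were among the most abundant in the libraries. Over whole exons, averaged over the 4 libraries, mt-Co1 stood at 3242 and mt-Nd4 at 1367 CPM per kb, but many of their windows are shared. Per kb scaled to the share of windows not found in another gene, mt-Cytb, the only complex III subunit of that genome, stood highest at 5740 CPM per kb. mt-Co1, the subunit of complex IV that holds its oxygen-reducing site, followed at 5386. Among the complex I membrane subunits, mt-Nd1 stood at 4012, mt-Nd4 at 3552, mt-Nd5 at 2181, mt-Nd6 at 2036 and mt-Nd2 at 1971 CPM per kb. The count of mt-Nd6, which is read from the strand opposite the others, thus stood beside those of mt-Nd5 and mt-Nd2. Over whole exons the levels per kb of these 3 overlapped between libraries. The scaled values assume that shared windows give no reads and that all other windows are counted. Windows were compared with annotated transcripts only. For mt-Atp8, with 0% shared yet few reads, the assumption did not hold, so the scaled order is approximate. Whether counting used strand is not stated, so the mt-Nd6 count, here and below, can include reads of precursors from the other strand.

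Most of these 7 genes were slightly lower in Brg1cKO, and 0 passed the test at an adjusted p under 0.05. mt-Nd5 stood at 3715 and 3545 CPM in Brg1cKO against 4129 and 4262 CPM in Control. Both Brg1cKO libraries lay below both Control libraries, and the log2 fold change of -0.21 ± 0.0608 (SE) had a 95% interval from -0.35 to -0.07 (adjusted p = 0.353, edgeR). mt-Nd2 stood at 1820 and 1759 CPM in Brg1cKO against 1999 and 2139 CPM in Control, also without overlap (-0.21 ± 0.0778, adjusted p = 0.368, edgeR). mt-Nd6 showed the same order, with 1005 and 914 CPM in Brg1cKO against 1121 and 1187 CPM in Control (-0.27 ± 0.0995, adjusted p = 0.368, edgeR).

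mt-Co1 stood at 4911 and 4832 CPM in Brg1cKO against 5035 and 5260 CPM in Control, without overlap, and its interval of -0.21 to 0.05 on the log2 scale included 0 (adjusted p = 0.685, edgeR). mt-Cytb stood at 6298 and 6462 CPM in Brg1cKO against 6396 and 7111 CPM in Control, and the groups overlapped (log2 fold change -0.08, adjusted p = 0.73, edgeR). mt-Nd4, at 1804 and 1830 against 2102 and 1801 CPM, and mt-Nd1, at 3869 and 3929 against 3925 and 3632 CPM, overlapped as well. Their log2 fold changes were -0.10 for mt-Nd4 and 0.05 for mt-Nd1, and each changed sign when 1 Control library was left out. None of these intervals reached a change of 2-fold in either direction; the widest, for mt-Nd6, ran from -0.50 to -0.03.

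Over all 106 genes, 101 passed the low-count filter and 0 were called by edgeR, where 5 of 16557 genes were called in all (0.0302%), 2 higher (0.0121%) and 3 lower (0.0181%). At an unadjusted p under 0.05 there were 5 members higher and 4 lower, which is 8.91% of those tested against 12.5% of all genes (7.66% higher and 4.8% lower). The count depended on the tool and the library, with 14 members called by DESeq2 (13.9%, against 14.6% of all genes), 1 by limma voom (mt-Nd5, against 0.326% of all genes), 0 with the replicate number as a block (against 0.846%), 17 without Control replicate 1 (16.3%, against 17.6%) and 21 without Control replicate 2 (20.2%, against 16.9%). In the last 2 fits the lone Control library is taken to vary as the Brg1cKO pair did. Of the 14 members called by DESeq2, 7 were higher and 7 lower in Brg1cKO, where 1379 and 1043 of all genes were. All these fits draw on the same libraries, so a member called in several of them is not independently supported. The share of all genes called in several fits was not counted.

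The 2 genomes stood apart in direction. The mitochondrially encoded genes had a median log2 fold change of -0.18 with 11 of 13 negative, the nuclear subunit genes a median of 0.22 with 53 of the 80 tested positive (51.5% of all genes were), and all genes tested a median of 0.03. For the 7 mitochondrial genes outside the almost uncounted block the median was -0.10, with 6 of 7 negative. Without Control replicate 1 the median of all 13, which includes the almost uncounted block, was 0.02 and the nuclear one 0.27. For the 7 genes outside the block the median in that fit was not taken, so the 0.02 does not show how they moved. Reads of the 13 mitochondrial genes made up 2.34% and 2.33% of gene reads in Brg1cKO against 2.48% and 2.5% in Control. Reads of the nuclear subunit genes made up 0.716% and 0.712% in Brg1cKO against 0.612% and 0.637% in Control. The ratio between them was 3.27 and 3.28 in Brg1cKO against 4.05 and 3.93 in Control. Both replicates of a group lay close together and the groups did not overlap, but these sums carry no test. The ratio needs no library scaling, and it differed between libraries whose cell type markers differed as given above. Other library values split the same way. Records not aligned were 9.54% and 9.41% in Brg1cKO against 20.9% and 19.1% in Control, and records in no gene were 14.5% and 15% against 21% and 21.6%. Genes with a read numbered 20859 and 20902 in Brg1cKO against 17266 and 17086 in Control, and mitochondrial rRNA took 0.0948% and 0.0939% of gene reads against 0.149% and 0.17%. The part of these differences in the ratio was not tested.

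Nuclear subunit genes without overlap between the groups numbered 27 higher in Brg1cKO (33.8% of those tested, against 26.3% of all genes) and 8 lower (10%, against 17.8%). The 27 include Cox7a1 and Cox4i2, which passed the low-count filter only through their Brg1cKO counts, so their order was set by the filter. For the mitochondrially encoded genes they numbered 0 higher and 4 lower (30.8%). Summed over nuclear subunit genes, the level was 7182 and 7106 CPM in Brg1cKO against 6107 and 6463 CPM in Control. Of the complexes, complex V had the widest gap in summed CPM, with a ratio of group means of 1.22, while complex II had the larger ratio, 1.28.

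**Figure D2:**
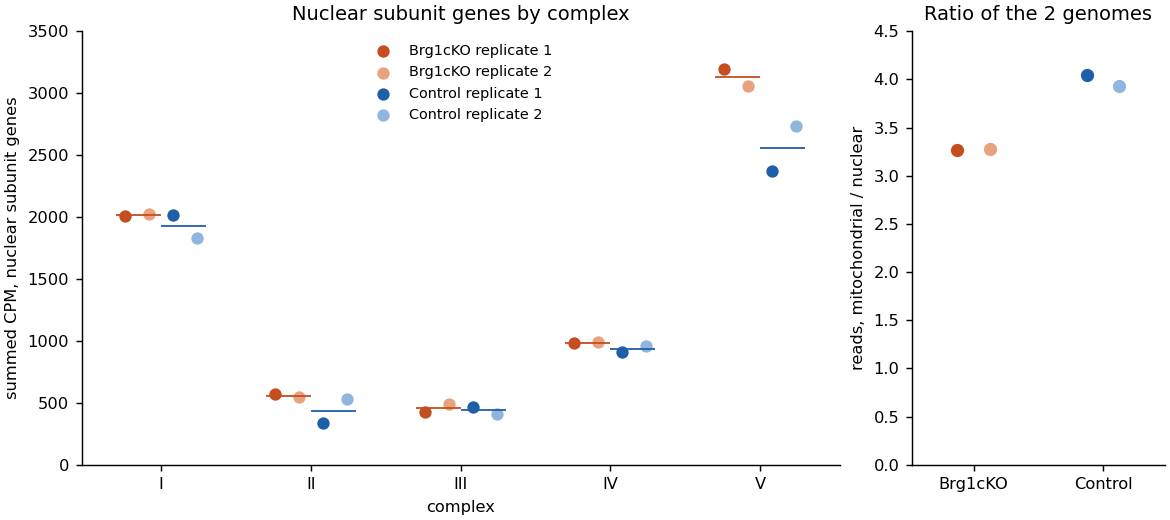
The left panel plots the summed CPM of nuclear subunit genes of each complex with 1 point per library and lines at group means, and the right panel the ratio of mitochondrial to nuclear subunit reads in each library. Complex V shows the widest gap in CPM, with both Brg1cKO libraries above 3000 CPM, and the ratio is 3.27 and 3.28 in Brg1cKO against 4.05 and 3.93 in Control.

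Complex I has 38 nuclear genes here, of which 37 were tested, and 0 were called. Their sum hardly differed, at 2011 and 2021 CPM in Brg1cKO against 2016 and 1832 CPM in Control. Of the 7 core subunits, which carry the flavin and the iron-sulfur clusters, 6 were tested, with 3 positive and 3 negative and a median of -0.08. Of the 31 accessory subunits 19 were positive, with a median of 0.29. By their symbols, Ndufa4 and Ndufa4l2 are counted among these and in the complex I sum, though they are described with complex IV below. Ndufs7, a core subunit next to the ubiquinone site, stood at 42.4 and 38.9 CPM in Brg1cKO against 68.7 and 62.6 CPM in Control, without overlap (log2 fold change -0.69 ± 0.355, adjusted p = 0.524, edgeR). Ndufs1 and Ndufs8 also stood lower without overlap, but by narrow margins. Ndufs1 stood at 107 and 118 CPM in Brg1cKO against 119 and 133 CPM in Control (log2 fold change -0.16, adjusted p = 0.88, edgeR). Ndufs8 stood at 48.3 and 48.9 CPM in Brg1cKO against 51 and 59.4 CPM in Control (-0.19, adjusted p = 0.917, edgeR).

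The widest differences in complex I were in small accessory subunits of its membrane arm. Ndufb4 (chromosome 16, 37647170 to 37654453, mm10) stood at 25.6 and 27.4 CPM in Brg1cKO against 4.22 and 0.318 CPM in Control. Its log2 fold change was 3.55 ± 1.25 (adjusted p = 0.368, edgeR; 6.36 without Control replicate 1), and 17.2% of its 75-base windows are shared with other genes' transcripts, Ndufb4c among them. Ndufb3 stood at 21.5 and 16.8 CPM in Brg1cKO against 4.42 and 2.07 CPM in Control (2.56 ± 0.993, adjusted p = 0.368, edgeR). For both the Control libraries held few reads and lay over 2-fold apart.

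The most abundant nuclear complex I genes per kb showed no such gap. Ndufa2, an accessory subunit, stood at 53.7 and 65.1 CPM in Brg1cKO against 59.7 and 92.5 CPM in Control (log2 fold change -0.36, adjusted p = 0.799, edgeR). Ndufb11 stood at 79.2 and 70.8 CPM in Brg1cKO against 138 and 67.6 CPM in Control (-0.45, adjusted p = 0.756), and Ndufb9 at 108 and 85.2 against 69.3 and 75.8 CPM (0.42, adjusted p = 0.686). For Ndufa2 and Ndufb11, 1 Control library set much of the spread, and the value of Ndufb11 became positive without Control replicate 1. The groups did not overlap for Ndufb9. Ndufs3, a core subunit, was counted at 19 and 6 reads in Brg1cKO and 0 in both Control libraries. Of its windows, 11.7% were shared with genes elsewhere, and it did not pass the low-count filter.

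Among the 8 complex I assembly factors, 5 were positive and 3 negative, and the lowest adjusted p was 0.727 (edgeR), for Ndufaf4. Ndufaf4 stood at 22.4 and 38.2 CPM in Brg1cKO against 9.48 and 23.2 CPM in Control (log2 fold change 0.89 ± 0.68, 0.39 without Control replicate 1 and 1.66 without Control replicate 2). Ndufaf2 stood at 23.1 and 19.9 CPM in Brg1cKO against 18.9 and 1.06 CPM in Control, with a log2 fold change of 1.11 ± 1.20 that was 4.34 without Control replicate 1 and 0.17 without Control replicate 2, and 1955 of its exonic bases overlap a gene on the opposite strand.

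Complex II, succinate dehydrogenase, is shared with the TCA cycle, and all 4 of its genes had positive values. Sdhd, a membrane anchor, stood at 92.8 and 89.1 CPM in Brg1cKO against 33.9 and 55.4 CPM in Control. Its groups did not overlap, and its log2 fold change of 1.03 ± 0.363 (95% interval 0.17 to 1.88) did not pass (adjusted p = 0.368, edgeR). Sdha, the flavoprotein, stood at 252 and 286 CPM in Brg1cKO against 178 and 265 CPM in Control (0.28 ± 0.224, adjusted p = 0.743, edgeR), with 0.03 without Control replicate 1 and 0.57 without Control replicate 2. Sdhb, the iron-sulfur subunit, stood at 129 and 98.1 CPM in Brg1cKO against 56.6 and 127 CPM in Control. Its fold change of 0.30 was -0.16 without Control replicate 1 and 0.99 without Control replicate 2. Their sum was 570 and 546 CPM in Brg1cKO against 339 and 534 CPM in Control, so that most of the gap was set by Control replicate 1.

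Complex III showed both directions. Uqcrh, a small acidic subunit, stood at 71.3 and 80.8 CPM in Brg1cKO against 48.3 and 44.0 CPM in Control (log2 fold change 0.72 ± 0.332, adjusted p = 0.453, edgeR). Uqcr10 stood at 43.3 and 36.4 CPM in Brg1cKO against 19.7 and 23.1 CPM in Control (0.90 ± 0.480, adjusted p = 0.547). Uqcrb, which binds ubiquinone, stood the other way, at 38.4 and 46.6 CPM in Brg1cKO against 64.2 and 74.4 CPM in Control (-0.71 ± 0.355, adjusted p = 0.509, edgeR). These 3 genes, named for the smallest p in the complex, had no overlap between the groups. They make 2 of 8 tested higher (25%, against 26.3% of all genes) and 1 lower (12.5%, against 17.8%). The complex as a whole summed to 424 and 490 CPM in Brg1cKO against 469 and 406 CPM in Control.

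The Rieske iron-sulfur protein gene Uqcrfs1 stood at 86.2 and 93.4 CPM in Brg1cKO against 90 and 118 CPM in Control (log2 fold change -0.21, adjusted p = 0.862, edgeR). Uqcr11, among the highest of the complex per kb, stood at 39.1 and 53.1 CPM in Brg1cKO against 78.6 and 27.1 CPM in Control, with the Control libraries 2.90-fold apart. Uqcrc1, which encodes a large core protein, was counted at 2.46 and 1.54 CPM in Brg1cKO against 0.585 and 2.28 CPM in Control, though 0% of its windows were shared with other transcripts.

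**Figure D3:**
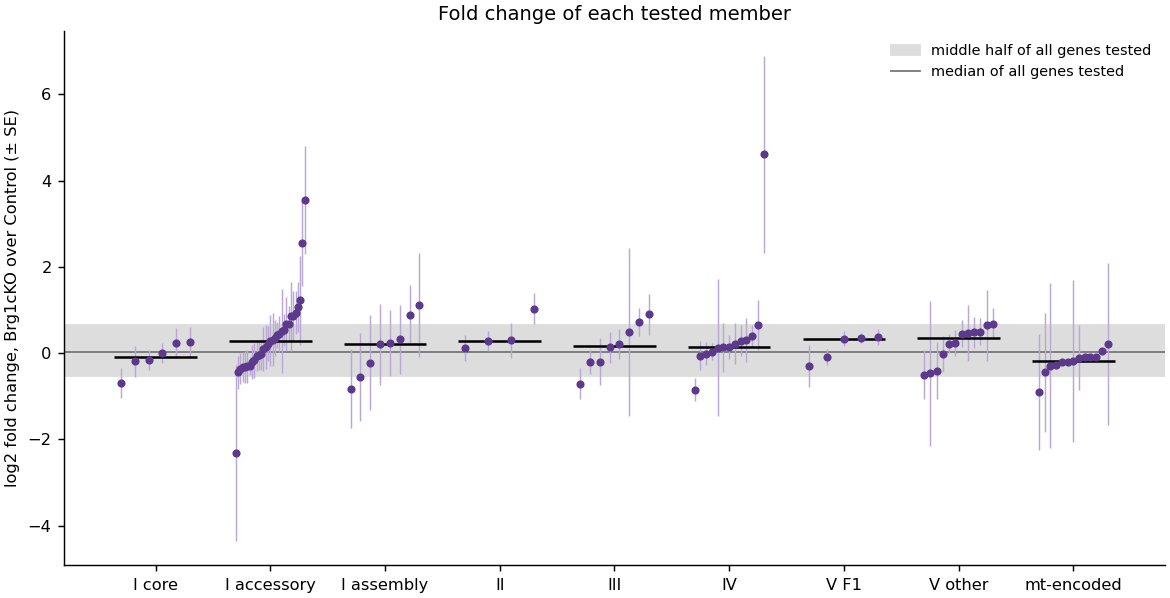
Each point is the log2 fold change of Brg1cKO over Control of a tested member with its SE, grouped by class with the class median as a black line, beside the median and interquartile range of all genes tested. Medians lie between -0.18 for mitochondrially encoded genes and 0.34 for complex V genes outside F1, and the widest error bars belong to genes with few reads.

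Complex IV has 18 nuclear genes, of which 14 were tested. Cox6c, a small subunit (chromosome 15, 35925886 to 35938246, mm10), stood at 66.2 and 63.8 CPM in Brg1cKO against 116 and 119 CPM in Control. Replicates agreed closely, and the log2 fold change was -0.85 ± 0.266 with an interval of -1.48 to -0.23 (adjusted p = 0.368, edgeR). Cox6c shares 250 exonic bases with Vps13b on the opposite strand, and the strand setting of the counting is not given in the sources used here. Cox8a, the highest of the complex per kb, stood at 132 and 119 CPM in Brg1cKO against 110 and 81.6 CPM in Control (0.39, adjusted p = 0.677; 0.62 without Control replicate 1 and 0.17 without Control replicate 2). Cox4i1, the ubiquitous form of the subunit that binds ATP, stood at 217 and 220 CPM in Brg1cKO against 186 and 243 CPM in Control (0.03, adjusted p = 0.982), a value that was -0.01 under RLE scaling and in DESeq2.

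Several complex IV subunits exist as a ubiquitous form and a form restricted to some tissues. Cox7a1, the heart and skeletal muscle form, had 25 and 67 reads in Brg1cKO and 0 in both Control libraries, and did not pass (adjusted p = 0.368, edgeR). Against a floor of 3 counts over the Control group its level was 19.0-fold higher. That ratio leaves out the spread between replicates and is not an interval. Cox6a2, another muscle form, had 63 and 6 reads in Brg1cKO and 0 in both Control libraries, 14.3-fold higher by the same floor, but 1 library held most of the reads. It did not pass the low-count filter. Cox6a2 also shares 70 exonic bases with Itgad on the opposite strand, and whether counting used strand is not stated. Cox8b, also a muscle form, had 0 reads in every library, and so did Cox8c. In the same libraries the striated muscle and heart markers summed to 897 and 904 CPM in Brg1cKO against 194 and 146 CPM in Control, mostly from heart and sarcomere genes. The skeletal muscle regulators of that list did not share this order, with Myog at 0 and 0 CPM in Brg1cKO against 0 and 1.06 CPM in Control and Myod1 at 0 and 0.154 against 1.23 and 26.9 CPM. The part of muscle cells in these values was not tested.

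Cox4i2, a form known from lung and low oxygen, had 10.1 and 5.90 CPM in Brg1cKO against 0 and 0.637 CPM in Control (log2 fold change 4.61 ± 2.29, adjusted p = 0.497, edgeR). Ndufa4l2, known as a target of the hypoxia response, stood the other way, at 1.30 and 0.386 CPM in Brg1cKO against 7.15 and 1.27 CPM in Control (-2.31 ± 2.04, adjusted p = 0.772). Both rested on few reads, and their intervals included 0. Ndufa4l2 shares 32 exonic bases with Shmt2 on the opposite strand. Cox7b2 had 0 and 70 reads in Brg1cKO and 0 in both Control libraries, so a single library carried it. The testis form Cox6b2 stood at 7.51 and 2.28 CPM in Brg1cKO against 7.08 and 1.91 CPM in Control.

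The ubiquitous partners named next were higher in every library than their restricted forms, and their groups overlapped. Cox6a1 stood at 93.9 and 101 CPM in Brg1cKO against 90 and 106 CPM in Control. Cox6b1 stood at 76.1 and 63.4 CPM in Brg1cKO against 59.3 and 86.2 CPM in Control, and Cox7a2 at 54.1 and 47.2 against 70.2 and 22.4 CPM. Cox7b stood at 83.9 and 114 CPM in Brg1cKO against 85.2 and 94.5 CPM in Control, and Ndufa4, now counted with complex IV by function, at 46.5 and 55.8 against 54.6 and 49.8 CPM. Cox7a2l, which helps complexes III and IV associate, stood at 32.5 and 39.1 CPM in Brg1cKO against 24.6 and 37.0 CPM in Control. 

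**Figure D4:**
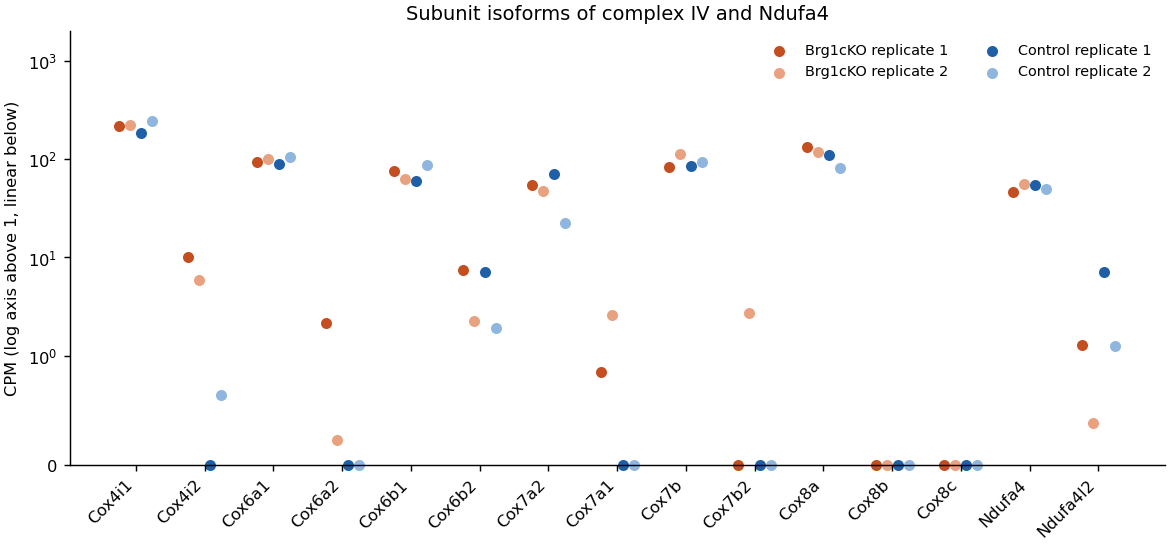
CPM of complex IV subunit isoforms and Ndufa4 with 1 point per library, Brg1cKO left of Control, on an axis that is linear below 1 CPM and logarithmic above. Cox7a1 and Cox6a2 are at 0 in both Control libraries and above 0 in both Brg1cKO libraries, while the groups overlap for Cox6a1, Cox6b1, Cox7a2 and Cox7b and not for Cox8a.

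Complex V is the most abundant of the nuclear sums, at 3192 and 3061 CPM in Brg1cKO against 2373 and 2735 CPM in Control, and 0 of its 17 genes were called. Of these, 11 were positive and 6 negative, with a median log2 fold change of 0.33, and 9 had no overlap, all higher in Brg1cKO (52.9%, against 26.3% of all genes). Atp5b, the catalytic beta subunit of the F1 head (chromosome 10, 128083273 to 128090391, mm10), stood at 941 and 868 CPM in Brg1cKO against 695 and 724 CPM in Control. Its log2 fold change was 0.35 ± 0.105, with an interval of 0.10 to 0.60 (adjusted p = 0.362, edgeR). Atp5a1, the alpha subunit, stood at 938 and 888 CPM in Brg1cKO against 591 and 860 CPM in Control (0.33 ± 0.175, adjusted p = 0.541). Its value was 0.09 without Control replicate 1 and 0.61 without Control replicate 2, where edgeR called it. Atp5d, the delta subunit of the central stalk, stood at 184 and 192 CPM in Brg1cKO against 146 and 146 CPM in Control (0.37 ± 0.190, adjusted p = 0.526).

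The gamma subunit gene Atp5c1, which turns inside the F1 head, did not share this order, at 187 and 213 CPM in Brg1cKO against 201 and 225 CPM in Control (log2 fold change -0.09, adjusted p = 0.922, edgeR). Atp5j2, a small subunit of the membrane part, stood at 98.1 and 86.4 CPM in Brg1cKO against 42.9 and 72.0 CPM in Control (0.68 ± 0.357, adjusted p = 0.537), with 0.36 without Control replicate 1 and 1.08 without Control replicate 2. Of the 3 genes for the c ring, which encode the same mature protein, Atp5g3 was the highest, at 166 and 150 CPM in Brg1cKO against 83.0 and 148 CPM in Control. Atp5g2 stood at 21.4 and 20.9 CPM in Brg1cKO against 14.0 and 16.6 CPM in Control, with 35.8% of its windows shared with other genes. Atp5g1 stood at 20.8 and 32.3 CPM in Brg1cKO against 27.9 and 6.05 CPM in Control, which overlapped.

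The replicates set how far such differences can be read. Over the 80 nuclear subunit genes tested, the median log2 gap between replicates was 0.207 in Brg1cKO and 0.536 in Control. Genes with replicates over 2-fold apart numbered 3 in Brg1cKO and 17 in Control. Across these genes, which are not independent replicates, the log2 fold change had a Spearman rho of -0.0375 with exon length and of -0.26 with the average level.

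Some promoters of the nuclear genes hold short motifs known from this gene family, which bind the transcription factors NRF1, GABPA (an ETS factor) and YY1. Promoter windows from RefSeq (GRCm38.p6, 250 bases before to 50 after a start, at least 1 for 67 of the 85 nuclear subunit genes) were searched on both strands. GCATGCG, the middle of the NRF1 site, was found in 11 of 72 windows (15.3%, against 4.58% of 20104 windows of protein-coding genes). CCGGAAG, an ETS core, was found in 16 windows (22.2%, against 11.9%), and AAGATGG, the middle of a YY1 site, in 10 (13.9%, against 6.30%). The ETS core was found for 2 of the complex II genes, Sdhd and Sdhb, and 1 of the 2 windows of Atp5j held all 3 motifs while the other held none. Sdhd and that Atp5j window were chosen for display after the search. These windows are shown with the motifs in capitals on whichever strand they were found, where the NRF1 match of Atp5j reads on both strands with overlapping letters.
Sdhd (chr9:50603800-50604099, minus strand): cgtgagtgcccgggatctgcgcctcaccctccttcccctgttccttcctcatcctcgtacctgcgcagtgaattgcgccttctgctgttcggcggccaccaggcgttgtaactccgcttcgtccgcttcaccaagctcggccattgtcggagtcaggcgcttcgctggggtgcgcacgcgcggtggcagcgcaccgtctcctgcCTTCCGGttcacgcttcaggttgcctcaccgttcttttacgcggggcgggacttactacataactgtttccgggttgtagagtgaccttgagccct
Atp5j (chr16:84834927-84835226, minus strand): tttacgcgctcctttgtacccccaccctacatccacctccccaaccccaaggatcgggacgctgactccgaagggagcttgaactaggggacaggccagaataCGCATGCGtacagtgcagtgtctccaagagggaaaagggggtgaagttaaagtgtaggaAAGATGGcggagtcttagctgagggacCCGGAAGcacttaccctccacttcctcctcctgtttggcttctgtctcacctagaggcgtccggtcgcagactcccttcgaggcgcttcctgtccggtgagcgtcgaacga

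A motif match here is a description of these letters, not a measured binding site. Atp5j, a peripheral stalk subunit, shares 397 exonic bases with Gabpa on the opposite strand. Atp5j stood at 133 and 131 CPM in Brg1cKO against 119 and 108 CPM in Control. Gabpa stood at 131 and 94.4 CPM in Brg1cKO against 77.8 and 58.5 CPM in Control (log2 fold change 0.73 ± 0.313, adjusted p = 0.412, edgeR). If the counting ignored strand, reads of the shared bases cannot be told apart.

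Other genes that serve the same system were read from lists of textbook members. Cytochromes c1 and c stood higher in Brg1cKO without passing. Cyc1, the cytochrome c1 subunit of complex III, which the prefix rule leaves out, stood at 98.4 and 117 CPM in Brg1cKO against 68.0 and 70.2 CPM in Control (log2 fold change 0.64 ± 0.277, adjusted p = 0.413). Cycs, the soluble cytochrome c, stood at 36.1 and 41.8 CPM in Brg1cKO against 15.4 and 11.0 CPM in Control (1.56 ± 0.544, adjusted p = 0.368, edgeR). Of all 7 tested carriers outside the prefix rule, 5 were positive, with a median of 0.31. The carriers and porins that exchange ADP, ATP and phosphate had 6 of 6 tested positive and a median of 0.31, and Slc25a5, an ADP/ATP carrier, stood at 222 and 206 CPM in Brg1cKO against 144 and 97.6 CPM in Control. Vdac2, an outer membrane porin, stood at 177 and 183 CPM in Brg1cKO against 119 and 91.1 CPM in Control, and Slc25a4 was the highest of the list, at 549 and 492 against 474 and 458 CPM.

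Genes that make and read mitochondrial RNA did not share a direction. Tfam, which packages mitochondrial DNA and starts its transcription, stood at 40.6 and 42.9 CPM in Brg1cKO against 82.1 and 105 CPM in Control. The groups did not overlap, and the log2 fold change of -1.17 ± 0.327 did not pass (adjusted p = 0.334, edgeR). Hsd17b10, a part of mitochondrial RNase P, stood at 46.9 and 42.8 CPM in Brg1cKO against 84.9 and 66.8 CPM in Control, and Polg, the mitochondrial DNA polymerase, at 101 and 133 against 175 and 136 CPM. Over the 25 tested genes of this list, 11 were positive and 14 negative, with a median of -0.09. The mitochondrial ribosomal proteins, which translate these RNAs, had 57 of 76 tested positive and a median of 0.33. The cytosolic ribosomal proteins had 62 of 83 positive with a median of 0.11, against 0.03 for all genes tested.

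Of the mitochondrial ribosomal proteins, Mrpl18 stood at 48.7 and 60.5 CPM in Brg1cKO against 10.4 and 21.8 CPM in Control, Mrpl44 at 21.8 and 24.6 against 69.3 and 44.0 CPM, and Mrpl3 at 77.9 and 82.1 against 101 and 50.5 CPM. Of the cytosolic ones, Rpl26 stood at 236 and 265 CPM in Brg1cKO against 378 and 451 CPM in Control, Rplp0 at 1001 and 997 against 693 and 847 CPM, and Rpl4, the highest, at 1492 and 1414 against 1543 and 1334 CPM. Members without overlap were mostly higher in Brg1cKO in both lists, and 0 of either list were called. The mitochondrial ones numbered 30 higher (39.5% of those tested) and 6 lower (7.89%). The cytosolic ones numbered 29 higher (34.9%) and 7 lower (8.43%). Over all genes tested the shares were 26.3% higher and 17.8% lower.

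Assembly factors of complexes II to V had 14 of 30 tested positive and a median of -0.03. Cox19, a copper chaperone of complex IV assembly, stood at 7.55 and 19.0 CPM in Brg1cKO against 44.0 and 31.8 CPM in Control, Lyrm7 at 3.45 and 2.16 against 0 and 0 CPM, and Lrpprc, which stabilises mitochondrial mRNAs, at 137 and 159 against 130 and 188 CPM. The complex I assembly factors outside the prefix rule had 4 of 6 positive and a median of 0.67, with Acad9 at 39.0 and 42.7 against 30.7 and 20.2 CPM and Foxred1 at 35.4 and 36.4 against 32 and 11 CPM. Regulators of nuclear mitochondrial genes had 8 of 11 positive and a median of 0.11. Yy1, the highest of them, stood at 204 and 201 CPM in Brg1cKO against 165 and 183 CPM in Control, and Esrrb at 1.47 and 1.97 against 0.195 and 0 CPM.

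The supply of fuel stood in 2 ways. The TCA cycle list had 8 of 13 positive and a median of 0.02, with Mdh2 at 298 and 245 CPM in Brg1cKO against 275 and 194 CPM in Control, Idh3a at 78.7 and 124 against 54.8 and 85.2 CPM and Ogdh at 154 and 169 against 218 and 186 CPM. The glycolysis and lactate list had 19 of 20 negative and a median of -0.32, and 0 passed. Pfkl, the liver-type phosphofructokinase, stood at 235 and 228 CPM in Brg1cKO against 395 and 352 CPM in Control (log2 fold change -0.69 ± 0.152, adjusted p = 0.228, edgeR), Pfkp at 51.0 and 38.0 against 152 and 105 CPM, and Pkm at 1056 and 1065 against 1250 and 1303 CPM. The list summed to 4951 and 5070 CPM in Brg1cKO against 6202 and 6524 CPM in Control, while the nuclear oxidative phosphorylation genes summed to 7182 and 7106 against 6107 and 6463 CPM in the same libraries. No test was made of the difference between these lists.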

How the data were processed

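The authors deposited read counts per gene, 1 table for each of 4 libraries of single-end 75-base reads from random-primed, strand-specific RNA-seq; HISAT2, HTSeq and DESeq2 and the build mm10 are named in the submitters' processing notes without versions. Neither the annotation nor whether counting used strand is stated in the labels, and 32 members share exonic bases with a gene on the opposite strand. Lines that name no gene stayed out of library sizes; among them, records not uniquely aligned were 8.95% and 9.01% of records in Brg1cKO and 7.63% and 7.76% in Control. Symbols came from GENCODE M21.

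Counts were filtered with filterByExpr (minimum count 10, leaving 16557 genes), scaled by TMM and tested with edgeR 4.0.16 (quasi-likelihood F-test, robust, R 4.3.3), all 4 libraries in 1 fit with group as the term. P-values were adjusted by Benjamini-Hochberg over all genes tested, with a threshold of 0.05. Log2 fold changes are Brg1cKO over Control. CPM values are counts scaled to the TMM-adjusted library size. The script was tested on simulated data. Named genes were, by rule, every mitochondrially encoded member, the 3 nuclear members of each complex with the highest level per kb and the 3 with the smallest p, the alternative isoforms of complexes IV and V and of Ndufa4, the 2 Ndufaf factors with the smallest p, and of each further list the 2 genes with the smallest p and the 1 with the highest CPM; Uqcrc1, Ndufs3, Ndufs1, Ndufs8, Atp5j and the mt-Co2 to mt-Nd4l block were singled out after their values were seen. Members and lists were chosen with earlier results of these data known. Alternatives used DESeq2 1.42.0, limma 3.58.1, other scalings and filters, a replicate block, thinned reads and leaving out each library. Read counts limit precision, and intervals cover the fitted spread of these libraries. Fastkd4, Mrpp3 and Prorp were not matched by symbol.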

Additional observations from a re-analysis of the deposited data

Results flagged for a closer look

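Outside the gene counts, records that did not align uniquely made up at least 8.95% of all records in the Brg1cKO libraries, above 7.63% and 7.76% in the Control libraries. Records that did not align at all were 9.54% and 9.41% in Brg1cKO against 20.9% and 19.1% in Control. Taken over aligned records alone, a share added after the data were seen, records not aligned uniquely were 9.90% and 9.94% in Brg1cKO against 9.65% and 9.60% in Control, so most of the gap goes with the base of the share. Records assigned to more than one gene made up at least 2.95% of all records in the Brg1cKO libraries, above 2.23% and 2.20% in the Control libraries, and over aligned records they were 3.32% and 3.26% against 2.82% and 2.72%. Both kinds of record are left out of gene counts, and their part in the values of the mitochondrial block or of overlapping genes was not tested.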

How the results depend on the processing

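The number of genes called, 5, was 417 with every gene of at least 1 read, 10 at a minimum count of 50, 2422 with DESeq2, 54 with limma voom, 62 with the newer edgeR moderation, and between 33 and 3519 when 1 library was left out. Members called, 0, were 14 with DESeq2, 1 with limma voom, and between 0 and 21 when 1 library was left out. The nuclear median of 0.22 was 0.19 under RLE scaling and DESeq2, 0.26 under upper quartile scaling and 0.28 with limma voom, and 0.21 to 0.27 when 1 library was left out. The mitochondrial median of -0.18 ranged from -0.23 to 0.02, over all 13 genes and so with the almost uncounted block. The log2 ratio of summed complex IV was 0.16 per kb of exon, against 0.08. Cox4i1 was -0.01 under RLE scaling and DESeq2. When 1 library was left out, log2 fold changes ranged from -0.15 to 0.21 for Cox4i1, -0.90 to 0.15 for Ndufb11, -0.16 to 0.99 for Sdhb, -0.23 to 0.02 for mt-Nd4, -0.03 to 0.11 for mt-Nd1 and -0.18 to 0.01 for Atp5c1. Without a change of sign they ranged from 0.09 to 0.61 for Atp5a1, 0.17 to 4.34 for Ndufaf2, -0.64 to -0.03 for Ndufa2, 3.65 to 10.55 for Cox4i2, -3.42 to -0.59 for Ndufa4l2, -0.38 to -0.02 for Uqcrfs1 and -0.15 to -0.02 for mt-Cytb. Of the alternatives for named fold changes, 457 kept direction and side of the threshold, 39 passed it and 8 changed sign; the cause was not tested. The fit without mitochondrially encoded, ribosomal protein and haemoglobin genes gives no value for the 13 mitochondrially encoded genes.

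With the replicate number as a block, 140 genes and 0 members were called, and the nuclear median was 0.29. The replicate numbers do not pair the libraries by any label, and the deviations of same-numbered libraries had a correlation of -0.00528 across genes. Few reads limit Ndufs3, Cox6a2, Cox7a1, Cox7b2, Uqcrc1, Cox4i2, Ndufa4l2 and the mt-Co2 to mt-Nd4l block.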
